A study of Mus musculus with 9 samples.

Results

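The genes described here carry zinc, iron and copper across membranes, bind them or sense them. They are the zinc exporters (Slc30a genes), the zinc importers (Slc39a genes), both metallothioneins Mt1 and Mt2, and a set of iron, heme and copper genes fixed by name: Cybrd1, Slc11a2, Slc40a1, Heph, Tfrc, Fth1, Ftl1, Hmox1, Flvcr1, Flvcr2, Slc31a1, Atp7a and Atp7b. A probe set, a group of short probes read as 1 value on the array, was taken when its annotation named exactly 1 of these symbols. This gave 38 genes of the 18194 with a probe set, on 70 probe sets. Of these genes, 35 were among the 13830 tested. Slc30a8, Slc39a12 and Slc39a2 stayed below the filter on dim values, and every probe set for Ftl1 carried several symbols, so this ferritin subunit was not measured here.

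Small intestinal enterocytes take up dietary metals at the apical brush border and pass them to blood at the basolateral side. For iron, the reductase Cybrd1 and the transporter Slc11a2 act apically, and ferroportin (Slc40a1) with the oxidase hephaestin (Heph) act basolaterally. For zinc, Slc39a4 imports at the apical side and Slc30a1 exports at the basolateral side. Copper enters through Slc31a1 and leaves through the ATPase Atp7a. Metallothioneins bind zinc and copper in the cytosol, and the zinc-sensing factor Mtf1 is known to activate Mt1, Mt2 and Slc30a1 through short promoter motifs called metal response elements.

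RNA was measured on 9 arrays, 1 per mouse, in 3 groups of 3 adult male mice aged 6 to 8 weeks. Control jejunum and control ileum came from Gata4 loxP/+ VilCre mice, and mutant jejunum came from Gata4 loxP/- VilCre mice. Thus controls also carried the Cre transgene and 1 loxP copy of Gata4, and the mutants had a null copy in place of the wild-type one. The villin promoter drives Cre in the intestinal epithelium, so other cells of the gut wall keep their loxP copy. The jejunal position was 10 cm past the pyloric sphincter and the ileal position 1 cm before the cecum, and control jejunum and control ileum came from different mice. The sources used here do not say which layers of the gut wall were taken.

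The values are log2(intensity + 16) after quantile normalization, on which a difference of 1 is a doubling, and they understate changes of dim probe sets. The filter on dim values lay at 4.95 and the brightest value at 13.9. Probe sets differ in how brightly they bind, so levels are compared between arrays for 1 probe set, never between genes. A gene was called when its limma adjusted p was under 0.05, and "rose" and "fell" are used for called differences alone. The brightest tested probe set stands for its gene. In RNA from a mixture of cells, fewer cells of a type and less RNA per cell cannot be told apart.

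Before normalization the trimmed mean intensity was 150 to 172 in control jejunum, 147 to 180 in mutant jejunum and 96.8 to 122 in control ileum. Array weights, by which limma counts noisier arrays less, were 0.38 for mutant array 3 and 0.76 to 1.87 for the other arrays. Mutant array 3 thus stood apart from the rest over all tested probe sets, not only for the genes below. On its brighter probe set, Gata4 itself read 9.57, 9.49 and 9.52 in control jejunum and 9.61, 9.51 and 9.38 in mutant jejunum. In control ileum it read 5.64, 5.30 and 5.20. The dimmer Gata4 probe set read 8.07, 7.30 and 7.34 in control jejunum and 8.47, 8.29 and 7.91 in mutant jejunum. That mutant difference of 0.65 was not called (limma adjusted p = 0.195). The sources used here do not place the Gata4 probes relative to the deleted part, so these probe sets do not check the deletion. Regional markers were also read, from lists chosen with earlier results of these data known, so they are no independent check of the labels. All 3 jejunal markers fell and both ileal markers rose in mutant jejunum. The summed ileal markers overlapped between mutant jejunum (13.97 to 14.05) and control ileum (13.80 to 14.00). No gene of 6 in the general epithelial list, 6 in the smooth muscle list or 6 in the macrophage list was called in mutant jejunum. In control ileum, 5 of the 6 smooth muscle markers and 4 of 5 Paneth cell markers were called higher than in control jejunum, while 2 of 5 T cell markers, 2 of 5 B and plasma cell markers and 1 of 6 macrophage markers were called lower. The summed level of the 5 T cell markers was 12.38 to 12.79 in control jejunum, 12.48 to 13.18 in mutant jejunum, and 10.46, 11.74 and 11.98 on ileal arrays 1, 2 and 3. That of the 5 B and plasma cell markers was 13.00 to 13.24, 13.11 to 13.18 and 12.07 to 12.73, in the same order of groups. The summed level of 6 stress response genes was 11.40 to 11.81 in control jejunum, 11.85 to 13.22 in mutant jejunum, with the highest value on mutant array 3, and 11.37 to 13.50 in control ileum.

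Few of these genes were called between mutant and control jejunum. The zinc exporter Slc30a1 and the heme-binding membrane transporter Flvcr2 rose, and the zinc and iron importer Slc39a14 fell. That is 2 of 35 higher (5.71%), against 2.10% of all 13830 tested genes, and 1 of 35 lower (2.86%), against 2.29%. At an unadjusted p under 0.05 the limma model gave 8 higher and 5 lower members. The share of all genes at that threshold was not computed, so nothing is read from these counts. The median log2 difference of the members was 0.03, beside 0.00 over all genes tested. With the sign left out, the median difference was 0.24 for the members and 0.18 over all genes. Of the 32 genes not called, 27 differed by less than 0.5 on the log2 scale.

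In control ileum against control jejunum, Slc30a1, Slc39a8, Slc39a10 and Atp7a were higher, 4 of 35 (11.4%) against 8.79% of all genes. Slc39a14, Slc30a5 and Atp7b were lower, 3 of 35 (8.57%) against 9.12%. The median difference was -0.06, beside 0.03 over all genes. Mutant jejunum against control ileum gave 3 higher genes (Mt2, Flvcr2 and Slc39a14; 8.57% against 1.97%) and 1 lower gene (Slc39a8; 2.86% against 1.70%), with a median of 0.01 beside -0.02. In all, 9 genes were called in at least 1 comparison and 26 in none. Each pair of comparisons shares 1 group of arrays, so their values are set side by side below and are not independent of each other.

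**Figure D1:**
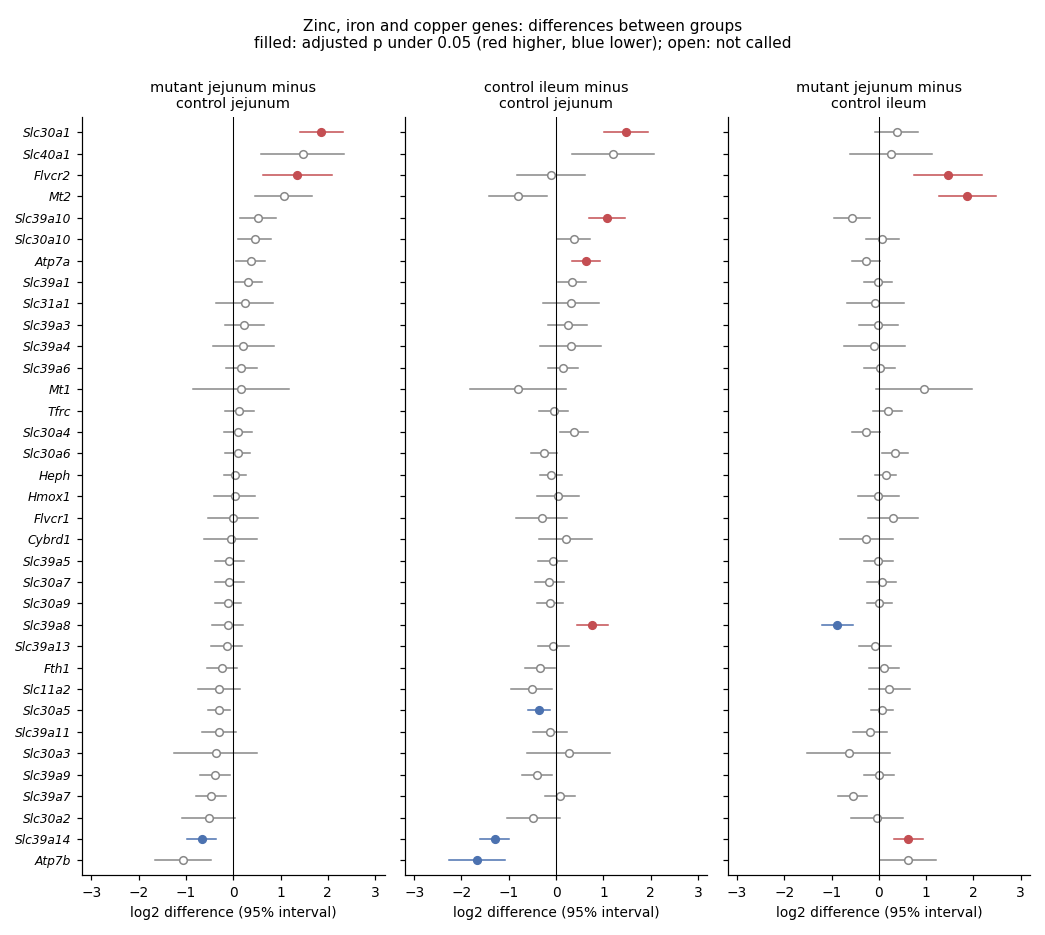
Log2 difference of each tested member gene in the 3 comparisons, by the probe set standing for the gene, with 95% intervals; filled points were called at a limma adjusted p under 0.05. Slc30a1 lies farthest to the right among called genes in mutant against control jejunum, at 1.86, and most genes lie within 0.5 of 0.

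Slc30a1 (ZnT1), which moves zinc out of the cell, rose in mutant jejunum and was also higher in ileum than in control jejunum. The brighter of its 2 probe sets read 8.08, 8.07 and 8.00 in control jejunum, 9.55, 9.67 and 10.51 in mutant jejunum, and 9.53, 9.53 and 9.53 in control ileum. Every mutant and every ileal array lay above every control jejunum array, and mutant and ileal arrays lay next to each other apart from mutant array 3, which was highest. The mutant difference was 1.86 (SE 0.208; 3.63-fold; limma adjusted p = 0.000587) and the ileal difference 1.48 (2.79-fold; limma adjusted p = 0.00086). Mutant jejunum exceeded control ileum by 0.38, with a 95% interval from -0.08 to 0.84 (limma adjusted p = 0.408). Mutant array 3 also had the lowest array weight and, among jejunal arrays, the highest summed stress response level. Without this array the mutant difference was 1.56 and was still called. Both called differences held under every alternative setting run.

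The dimmer Slc30a1 probe set read 7.13, 7.06 and 6.77 in control jejunum, 7.95, 8.53 and 8.70 in mutant jejunum, and 8.13, 7.70 and 8.68 in control ileum. Here too the control jejunum arrays lay below all others. It rose by 1.40 in mutant jejunum (limma adjusted p = 0.0126) and was 1.18 higher in ileum (limma adjusted p = 0.00978). The mutant call was lost without control jejunum array 3 (limma adjusted p = 0.0656) and without mutant array 2 (0.0617).

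**Figure D2:**
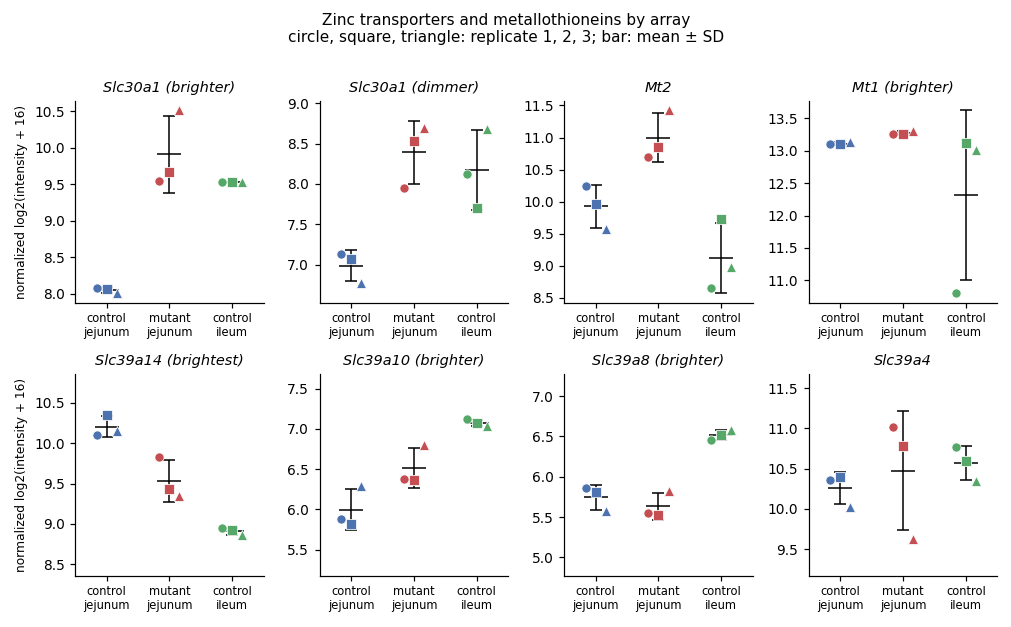
Normalized log2(intensity + 16) of zinc genes on each array (circle, square and triangle for replicates 1, 2 and 3), with group means and SD. Slc30a1 lies between 8.00 and 8.08 in control jejunum and above 9.5 on all 6 other arrays, and Mt2 is lowest in control ileum and highest in mutant jejunum.

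The metallothioneins, known targets of the same zinc-sensing factor, were not called against control jejunum in either comparison. Mt2 read 10.24, 9.97 and 9.57 in control jejunum, 10.70, 10.85 and 11.43 in mutant jejunum, and 8.65, 9.73 and 8.97 in control ileum. The mutant arrays lay above all others, and ileal array 2 lay within the control jejunum range. Mt2 was 1.87 higher in mutant jejunum than in control ileum (3.67-fold; limma adjusted p = 0.00752), a call that held in every setting run. Against control jejunum the mutant difference was 1.07 (95% interval 0.46 to 1.67; limma adjusted p = 0.0624) and the ileal difference -0.81 (limma adjusted p = 0.0704). The mutant difference passed the threshold in 5 alternative settings, among them array weights (limma adjusted p = 0.039), and without mutant array 3 it was 0.85 (0.152). 

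The brighter Mt1 probe set read 13.11, 13.10 and 13.13 in control jejunum, 13.26, 13.26 and 13.31 in mutant jejunum, and 10.80, 13.13 and 13.02 in control ileum. These levels lie near the top of the scale, and ileal array 1 stood far below the rest. Every mutant array lay above every control jejunum array, by a small margin. The mutant difference was 0.16 (95% interval -0.85 to 1.18; limma adjusted p = 0.905) and was called in no setting run. That interval reaches past a doubling, but the model pools the spread of all groups. The SD was 1.31 for ileum, against 0.028 for the mutant and 0.017 for control jejunum. Its width thus reflects mainly the ileal arrays, which are outside this comparison. Without ileal array 1 the ileal difference went from -0.80 to -0.04. The dimmer Mt1 probe set was also lowest on ileal array 1, at 4.95, beside 7.13 to 8.64 in control jejunum, and was called in no comparison. On that array Mt2 was the lowest value of its group as well, at 8.65, and so were the summed T cell markers (10.46) and B and plasma cell markers (12.07). The part of these cells in the metallothionein values was not tested.

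Promoter sequence is shown for Slc30a1 and Mt2, as known targets of the zinc-sensing factor that were called here, and for Flvcr2 and Atp7b, called heme and copper genes described further on. The windows are the 250 bases before the start in the RefSeq promoter table (GRCm38.p6), read 5′ to 3′ on the gene's strand. Capitals mark the metal response element core (searched as TGCACNC and, with the middle base changed, as TGCGCNC, on both strands) and, in Atp7b alone, a GATA motif that shares 1 base with it. The GATA motif was searched on both strands as TGATAA and, with another first base, as AGATAA, and also with G in place of the last base of each. For Slc30a1 the RefSeq gene span begins inside the window, at chr1:191906697, and only the 30 bases around the motif are printed. These 30 bases, with the motif, lie inside the gene span and not upstream of it. Mt2 lies at chr8:94172368-94172617 (plus strand), Slc30a1 at chr1:191906726-191906755 (plus strand), Flvcr2 at chr12:85746289-85746538 (plus strand) and Atp7b at chr8:22060075-22060324 (minus strand).
Mt2: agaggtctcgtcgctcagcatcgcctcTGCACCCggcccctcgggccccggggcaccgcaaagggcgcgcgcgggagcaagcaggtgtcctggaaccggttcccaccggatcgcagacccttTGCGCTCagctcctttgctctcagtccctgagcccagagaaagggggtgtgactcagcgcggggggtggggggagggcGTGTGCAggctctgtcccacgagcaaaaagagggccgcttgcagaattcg
Slc30a1: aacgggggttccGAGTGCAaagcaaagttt
Flvcr2: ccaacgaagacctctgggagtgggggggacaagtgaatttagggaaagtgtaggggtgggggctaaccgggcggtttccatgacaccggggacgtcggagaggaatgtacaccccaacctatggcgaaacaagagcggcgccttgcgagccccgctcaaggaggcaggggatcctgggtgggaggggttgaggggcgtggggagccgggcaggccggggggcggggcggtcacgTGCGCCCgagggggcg
Atp7b: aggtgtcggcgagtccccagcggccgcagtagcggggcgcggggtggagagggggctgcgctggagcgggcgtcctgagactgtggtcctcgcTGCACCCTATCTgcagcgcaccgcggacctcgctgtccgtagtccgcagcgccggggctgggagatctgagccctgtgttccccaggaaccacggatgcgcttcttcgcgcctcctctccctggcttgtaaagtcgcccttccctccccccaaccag
The Mt2 window holds 3 metal response element cores and the other windows 1 each. RefSeq windows were found for 30 of the 38 genes, giving 37 windows, with none for Slc40a1, Slc39a14, Slc39a4, Slc11a2, Heph, Hmox1, Slc30a8 and Slc39a6. The core was found in 18 of the 37 windows (48.6%), against 21.4% of all 32851 windows, and the GATA motif in 10 (27%), against 26.5%. These are letter matches in a short window, not shown binding sites.

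The other Slc30a genes moved little in mutant jejunum. Of 9 tested exporters, Slc30a1 was the only one called in that comparison, and the other 8 differed by -0.52 to 0.45. Slc30a5, which loads zinc into the secretory pathway, read 10.03, 10.28 and 10.21 in control jejunum, 9.87, 9.82 and 9.93 in mutant jejunum, and 9.72, 9.85 and 9.84 in control ileum. All mutant and ileal arrays lay below control jejunum. It was called lower in ileum by a small margin, -0.37 (limma adjusted p = 0.0409), and not in the mutant, -0.30 (0.181). The ileal call was lost without any 1 of control jejunum arrays 2 and 3 (limma adjusted p = 0.146 and 0.12), mutant arrays 1 and 2 (0.0546 and 0.0579) or ileal arrays 1, 2 and 3 (0.111, 0.0816 and 0.0741). Slc30a10, a manganese exporter despite its family name, was at 7.29 to 7.72 in control jejunum, 7.87 to 8.03 in mutant jejunum and 7.64 to 8.06 in ileum. The mutant arrays lay above the control arrays, with a difference of 0.45 that was not called (limma adjusted p = 0.168), and its second probe set differed by 0.53 (0.0744).

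Among the 12 tested zinc importers, Slc39a14 (Zip14) was the one called lower in mutant jejunum, and it was lower still in ileum. It imports zinc, manganese and non-transferrin-bound iron. Its brightest probe set read 10.11, 10.35 and 10.15 in control jejunum, 9.83, 9.44 and 9.34 in mutant jejunum, and 8.94, 8.92 and 8.86 in control ileum. The 3 groups did not overlap, with the mutant arrays between the others. The differences were -0.67 in mutant jejunum (SE 0.140; limma adjusted p = 0.0265), -1.30 in ileum (limma adjusted p = 0.000153) and 0.63 for mutant jejunum over ileum (limma adjusted p = 0.0424).

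The ileal difference of Slc39a14 held in every setting, while the other comparisons depended on single arrays and on the processing. The mutant call was lost without control jejunum array 2 or 3 (limma adjusted p = 0.124 and 0.0868) or mutant array 2 or 3 (0.106 and 0.0589). It was also lost without scaling between arrays (0.153), with median centring (0.109), with no intensity trend (0.0515) and with the compared groups alone (0.0572). The call of mutant jejunum over ileum was lost without any ileal array (limma adjusted p = 0.0893, 0.124 and 0.102 for arrays 1, 2 and 3), mutant array 1 or 2 (0.127 and 0.0774) or any control jejunum array. The other 3 Slc39a14 probe sets were each lower in ileum, by -0.74, -0.62 and -1.01 (limma adjusted p = 0.024, 0.0474 and 0.0274). The first of these calls was lost without control jejunum array 1 or 2 (0.0749 and 0.056) or ileal array 1 or 2 (0.0608 and 0.0877). The second was lost without control jejunum array 1 or 3 (0.122 and 0.0746), mutant array 1 or 2 (0.0587 and 0.0641) or ileal array 1, 2 or 3 (0.097, 0.132 and 0.0808). The last was lost without control jejunum array 1 or 2 (0.0679 and 0.109) or ileal array 1 or 3 (0.0539 and 0.0918). The summed T cell and B and plasma cell markers were also lower on ileal arrays, and their part in the Slc39a14 values was not tested. None of these 3 probe sets was called in mutant jejunum, where they differed by 0.09, -0.05 and -0.54.

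Slc39a10 and Slc39a8, plasma membrane zinc importers of which Slc39a8 also carries manganese and iron, were called higher in ileum and not in mutant jejunum. Slc39a10 read 5.88, 5.82 and 6.28 in control jejunum, 6.37, 6.36 and 6.80 in mutant jejunum, and 7.12, 7.07 and 7.03 in control ileum. The groups did not overlap. Its ileal difference was 1.08 (2.11-fold; limma adjusted p = 0.0019), kept in every setting run, and 1.27 on the dimmer probe set (0.00152), while the mutant difference of 0.52 was not called (0.146). Slc39a8 read 5.86, 5.81 and 5.57 in control jejunum, 5.55, 5.52 and 5.82 in mutant jejunum, and 6.45, 6.52 and 6.57 in control ileum. The jejunal groups overlapped and the ileal arrays lay above both. It was 0.77 higher in ileum than in control jejunum (limma adjusted p = 0.00579) and the difference of mutant jejunum from ileum was -0.88 (0.0143). The second of these was lost without mutant array 1 (limma adjusted p = 0.0636) or ileal array 2 (0.0624), and both without scaling between arrays (0.145 and 0.0517). On the dimmer Slc39a8 probe set the ileal difference was 0.92 and called (limma adjusted p = 0.0153), though not without control jejunum array 3 (0.0562) or ileal array 3 (0.0598). On it mutant jejunum differed from ileum by -0.77, without a call (0.0937). The summed level of the 6 smooth muscle markers was 12.59 to 13.13 in control jejunum, 12.38 to 12.98 in mutant jejunum and 13.58 to 13.93 in ileum, so it moved with these ileal increases. Its part in them was not tested.

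The main enterocyte importers showed no called difference. Slc39a4, the apical zinc importer whose human counterpart is mutated in acrodermatitis enteropathica, read 10.36, 10.39 and 10.03 in control jejunum, 11.01, 10.79 and 9.63 in mutant jejunum, and 10.77, 10.59 and 10.34 in control ileum. The mutant arrays spanned the control range on both sides. Its mutant difference was 0.22 (95% interval -0.42 to 0.86), and without mutant array 3, the low one, it was 0.64 (limma adjusted p = 0.0596). Slc39a5, a basolateral zinc importer, lay between 9.54 and 10.06 on all 9 arrays and differed by -0.08 in the mutant (95% interval -0.39 to 0.23). The 11 uncalled importers differed by -0.47 to 0.52 in mutant jejunum.

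Ferroportin (Slc40a1), the exporter of iron from enterocytes, gave high mutant values but a wide control spread. Its brighter probe set read 9.02, 9.66 and 7.70 in control jejunum, 10.34, 10.41 and 10.04 in mutant jejunum, and 9.65, 9.88 and 10.46 in control ileum. All mutant arrays lay above all control jejunum arrays, and control array 3 was lowest by far. The mutant difference was 1.47 (95% interval 0.60 to 2.33; limma adjusted p = 0.0727) and the ileal difference 1.20 (0.0611), neither called. Without control jejunum array 3 the mutant difference was 0.92 (0.14) and without array 2 it was 1.90 and called (0.0293). The mutant difference was also called without scaling between arrays (limma adjusted p = 0.0483), with median centring (0.0451) and with array weights (0.0219). The size of both differences depended on which control arrays were kept, with the ileal one at 0.65 without array 3 and 1.64 without array 2.

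The dimmer ferroportin probe set read 8.06, 8.11 and 6.46 in control jejunum, 9.42, 9.65 and 8.69 in mutant jejunum, and 8.81, 8.94 and 9.52 in control ileum. Again every control jejunum array lay below the rest, with array 3 lowest. This probe set was called higher in the mutant, by 1.71 (3.27-fold; limma adjusted p = 0.0445), and in ileum, by 1.55 (2.93-fold; 0.0252). The mutant call was lost without control jejunum array 2 or 3 (limma adjusted p = 0.0588 and 0.0927), mutant array 1 or 2 (0.109 and 0.155) or ileal array 1 or 2 (0.0553 and 0.0697). It was also lost with a pseudocount of 1 (0.0535), no filter (0.0711) and no intensity trend (0.0654). The ileal call was lost without control jejunum array 3 (limma adjusted p = 0.053) or ileal array 2 or 3 (0.057 and 0.0859). Without control array 3 the differences were 1.17 and 1.01. Macrophages also express ferroportin. The summed level of 6 macrophage markers was 11.82 to 11.94 in control jejunum, 11.29 to 12.26 in mutant jejunum and 11.72 to 12.26 in ileum, and its part in the ferroportin values was not tested.

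**Figure D3:**
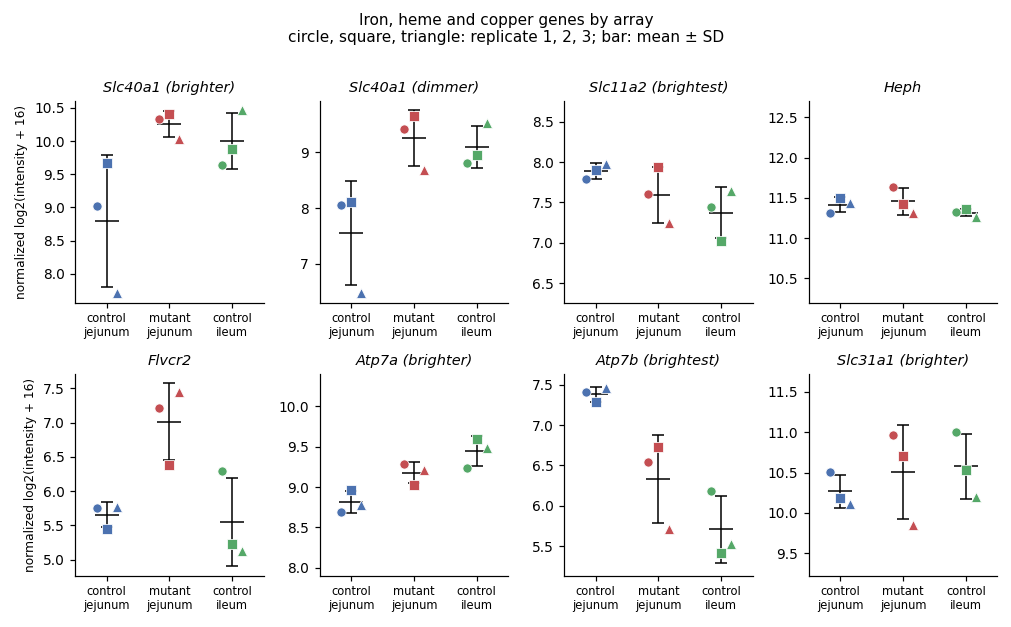
Normalized log2(intensity + 16) of iron, heme and copper genes on each array (circle, square and triangle for replicates 1, 2 and 3), with group means and SD. Both Slc40a1 probe sets are lowest on control jejunum array 3, and Atp7b falls from 7.28 to 7.46 in control jejunum to 5.41 to 6.18 in control ileum.

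The other enterocyte iron genes gave no called mutant difference. Slc11a2 (DMT1), the apical iron importer, read 7.79, 7.91 and 7.98 in control jejunum, 7.60, 7.93 and 7.25 in mutant jejunum, and 7.44, 7.03 and 7.65 in control ileum on its brightest probe set. The mutant arrays overlapped the control jejunum arrays and the ileal arrays lay below them. The ileal difference of -0.52 was not called (limma adjusted p = 0.102), but its other 3 probe sets were called lower in ileum, by -0.66, -0.70 and -1.07 (0.0168, 0.0325 and 0.0327). The first of these calls was lost without control jejunum array 2 or 3 (limma adjusted p = 0.0636 and 0.0625) or ileal array 2 or 3 (0.0665 and 0.0509). The second was lost without control jejunum array 1 or 2 (0.0958 and 0.0977) or ileal array 1 or 2 (0.0798 and 0.115). The last was lost without control jejunum array 1, 2 or 3 (0.0703, 0.113 and 0.0584) or ileal array 1 or 2 (0.0604 and 0.105). In mutant jejunum the 4 probe sets differed by -0.30, -0.56, -0.12 and -0.61, with no call. Heph lay between 11.27 and 11.63 on all arrays and differed by 0.04 in the mutant (95% interval -0.19 to 0.27). Cybrd1 was dim, at 5.20 to 6.25, and differed by -0.06 (95% interval -0.62 to 0.51). Fth1, the ferritin heavy chain, read 13.38 to 13.49 in control jejunum, 12.81 to 13.49 in mutant jejunum and 13.03 to 13.17 in ileum. Its ileal values lay below all control jejunum values, a difference of -0.34 that was not called (limma adjusted p = 0.129) and was called without mutant array 3 (0.00793).

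For the transferrin receptor Tfrc, which takes up transferrin-bound iron, the probe sets did not give 1 answer. The brightest read 10.62, 10.72 and 10.64 in control jejunum, 10.50, 10.91 and 10.98 in mutant jejunum, and 10.71, 10.39 and 10.73 in control ileum, with overlapping groups and a mutant difference of 0.13 (limma adjusted p = 0.703). The second read 8.66, 7.79 and 7.82 in control jejunum, 8.72, 8.95 and 8.82 in mutant jejunum, and 8.95, 8.15 and 8.61 in control ileum. Its mutant arrays lay above the control arrays, 0.74 on average, without a call (limma adjusted p = 0.151). The dimmest read 6.15, 5.44 and 5.40 in control jejunum, 7.02, 6.89 and 6.40 in mutant jejunum, and 7.20, 6.35 and 6.87 in control ileum. On it the control jejunum arrays lay below all others, and it was called higher in mutant jejunum, by 1.10 (limma adjusted p = 0.0472), and in ileum, by 1.14 (0.0145). The mutant call was lost without control jejunum array 2 or 3 (limma adjusted p = 0.178 and 0.183), mutant array 1 or 2 (0.131 and 0.151) or ileal array 3 (0.0633). The ileal call was lost without control jejunum array 2 or 3 (limma adjusted p = 0.06 and 0.0615) or ileal array 1 (0.0541).

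The array also carries 3 control rows against the mouse Tfrc transcript, for its 5′ part, middle and 3′ part, which had been left out with the other array controls. They were looked at after the values of the probe sets were known. Their values come from a separate normalization and fit that kept the array controls. The 5′ row read 5.81, 5.01 and 5.41 in control jejunum, 6.69, 6.73 and 6.30 in mutant jejunum, and 6.88, 6.38 and 6.96 in control ileum. The 3 rows differed in mutant jejunum by 1.17 (5′; limma adjusted p = 0.0205), 1.01 (middle; 0.0951) and 0.93 (3′; 0.0461), with the mutant arrays above the control arrays in each. Thus 5 of 6 rows for this gene had higher values on every mutant array, and the brightest did not. The gap was narrow in the middle row (lowest mutant value 6.07, highest control jejunum value 5.99) and in the second probe set (8.72 and 8.66). All these rows read 1 transcript on the same 9 arrays, so they are not separate results. The mean 3′ and 5′ values were 7.33 and 5.41 in control jejunum and 8.26 and 6.58 in mutant jejunum. In control ileum they were 7.97 and 6.74. The part of RNA quality in the differences of the control rows was not tested. The share of all probe sets with such a gap was not computed.

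**Figure D4:**
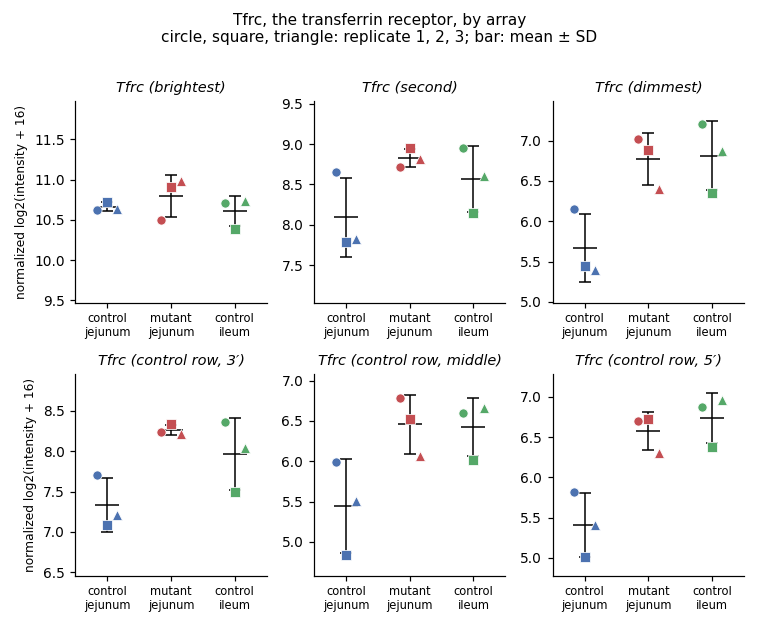
Normalized log2(intensity + 16) of the 3 tested Tfrc probe sets and the 3 Tfrc control rows on each array (circle, square and triangle for replicates 1, 2 and 3), with group means and SD. The control rows come from a separate normalization that kept the array controls. In the brightest probe set the groups overlap between 10.39 and 10.98, and in the others the mutant arrays lie above the control jejunum arrays.

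Among the heme genes, Flvcr2 was higher in mutant jejunum than in either control group. It belongs to the family of the heme exporter Flvcr1 and is known as a membrane transporter that binds heme and carries choline. It read 5.75, 5.45 and 5.77 in control jejunum, 7.21, 6.38 and 7.45 in mutant jejunum, and 6.29, 5.23 and 5.12 in control ileum. Every mutant array lay above every control array, though mutant array 2 and ileal array 1 were nearly equal. It rose by 1.36 against control jejunum (SE 0.328; 2.56-fold; limma adjusted p = 0.0477) and by 1.47 against ileum (2.77-fold; 0.0424). Both calls were close to the threshold. The first was lost without any control jejunum array (limma adjusted p = 0.0889, 0.173 and 0.13 for arrays 1, 2 and 3), mutant array 1 or 3 (0.124 and 0.124) or ileal array 2 (0.0656). That call was also lost with a pseudocount of 1 (0.0666), scaling to a trimmed mean (0.0593), no filter (0.0823), no intensity trend (0.0654) and array weights (0.0514). The second was lost without any control jejunum array (0.0621, 0.0618 and 0.0656), mutant array 1 or 3 (0.14 and 0.0842) or ileal array 2 or 3 (0.155 and 0.118). Flvcr1 differed by -0.00 in the mutant. Hmox1, the inducible heme oxygenase, lay at 4.87 to 5.42 on all arrays, around the filter level, and differed by 0.03.

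The copper ATPases Atp7a and Atp7b moved in opposite directions in ileum. Atp7a, which exports copper from enterocytes, read 8.69, 8.96 and 8.78 in control jejunum, 9.29, 9.03 and 9.21 in mutant jejunum, and 9.24, 9.60 and 9.49 in control ileum. Mutant and ileal arrays all lay above control jejunum. Its ileal difference was 0.63 (limma adjusted p = 0.01), a call lost without scaling between arrays (0.731) and with arrays centred on their medians (0.0812), and its mutant difference of 0.37 was not called (0.199). The dimmer Atp7a probe set was called in no comparison and was lowest on ileal array 1, at 7.56. Smooth muscle marker levels, given above, were also higher in ileum, and their part in the Atp7a difference was not tested.

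Atp7b, which is best known for loading copper in liver, read 7.41, 7.28 and 7.46 in control jejunum, 6.54, 6.73 and 5.71 in mutant jejunum, and 6.18, 5.41 and 5.53 in control ileum on its brightest probe set. Every mutant and ileal array lay below every control jejunum array. Its difference was -1.67 in ileum (limma adjusted p = 0.0019), kept in every setting run, and -1.06 in mutant jejunum (95% interval -1.65 to -0.47; 0.0576). The mutant difference passed the threshold in 5 settings, among them without ileal array 1 (limma adjusted p = 0.0417). The summed T cell and B and plasma cell markers were lower on ileal arrays too, and their part in the Atp7b difference was not tested. The other 2 Atp7b probe sets, which were dimmer, were called in no comparison. Slc31a1 (Ctr1), the copper importer, read 10.50, 10.19 and 10.11 in control jejunum, 10.97, 10.71 and 9.85 in mutant jejunum, and 11.01, 10.53 and 10.20 in control ileum. The groups overlapped and the mutant difference of 0.24 was not called (limma adjusted p = 0.717).

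Further genes of the same pathways were counted from lists chosen by role; over all genes tested, 2.10% were called higher and 2.29% lower in mutant jejunum. Each list is short, with 1 or 2 genes called, and nothing is read from its share. In mutant jejunum, 1 of 25 other iron genes was called, Ncoa4, the cargo receptor that delivers ferritin to autophagy, which fell by 0.54 (limma adjusted p = 0.035). That call was lost without control jejunum array 1, 2 or 3 (0.0976, 0.104 and 0.0985), mutant array 2 or 3 (0.12 and 0.0725) or ileal array 2 (0.055). The median of that list was -0.12, beside 0.00 over all genes. Of 17 other heme genes, 2 were called, both lower. The proton-coupled folate transporter Slc46a1, first described as a heme carrier, read 11.01, 11.00 and 11.05 in control jejunum, 7.92, 7.26 and 6.27 in mutant jejunum, and 6.33, 6.54 and 5.83 in control ileum. It fell by 3.87 in the mutant (limma adjusted p = 0.000119) and the ileal difference was -4.79 (8.26e-06), with no overlap between either group and control jejunum. Cpox, an enzyme of heme synthesis, read 8.05, 7.85 and 7.94 in control jejunum and 7.24, 6.41 and 6.92 in mutant jejunum, and fell by 1.09 (limma adjusted p = 0.0172). The Cpox call was lost without control jejunum array 1, 2 or 3 (0.0534, 0.0558 and 0.0692) or mutant array 2 (0.0601), while that of Slc46a1 held in every setting run. The list's median was -0.12.

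Of 13 other copper genes, 1 was called in the mutant. Sco2, a chaperone that delivers copper to cytochrome c oxidase, read 9.99, 10.37 and 9.71 in control jejunum, 8.91, 8.26 and 8.35 in mutant jejunum, and 8.20, 7.82 and 7.71 in control ileum. Control jejunum lay above all other arrays, and Sco2 fell by 1.52 in the mutant (limma adjusted p = 0.00313) and the ileal difference was -2.11 (0.000106), with both calls kept in every setting run. The list's median was -0.01. Of 7 other zinc genes, 1 was called, S100g, which is a vitamin D-regulated calcium-binding protein, not a zinc transporter. It read 8.51, 7.40 and 6.71 in control jejunum and 11.08, 11.18 and 8.77 in mutant jejunum, with no overlap, a difference of 2.80 (limma adjusted p = 0.0288) whose call was lost without control jejunum array 2 or 3 (0.108 and 0.125) or mutant array 1 or 2 (0.0838 and 0.112). Mtf1, the zinc-sensing factor in that list, differed by 0.03 in the mutant and 0.37 in ileum, with no call. Of 9 hypoxia factors and regulators, Ankrd37, a hypoxia-induced gene, rose by 1.59 (limma adjusted p = 0.047), at 6.88, 5.92 and 6.92 in control jejunum and 8.63, 8.57 and 7.27 in mutant jejunum. This call was lost without control jejunum array 1, 2 or 3 (limma adjusted p = 0.0684, 0.181 and 0.0945), mutant array 1 or 2 (0.132 and 0.166) or ileal array 2 or 3 (0.0656 and 0.0622). Epas1 (HIF-2α), known to activate Slc11a2, Cybrd1 and Slc40a1 in enterocytes, differed by -0.22 without a call in that comparison.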

How the data were processed

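The deposited table holds 1 linear intensity per probe set for each of 9 arrays, made by the authors with GCOS, the Affymetrix software, per the submitters' processing notes. Its settings are not stated there. From the deposited intensity, log2(intensity + 16) was computed and quantile normalized over 45037 probe sets, leaving out 64 array controls. A shift common to all transcripts could not be seen after this step. Probe sets above the 40th percentile (4.95) on at least 3 arrays were tested, 29307 in all.

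Tests used limma 3.58.1 in R 4.3.3: lmFit over all 9 arrays, 3 contrasts, eBayes with an intensity trend, two-sided, with Benjamini-Hochberg adjustment over all tested probe sets. Adjusted p-values come from this model, refitted where a left-out array or another setting is named. Those of the Tfrc control rows come from a refit that kept the array controls in the normalization. The code was tested on simulated data. Symbols are those of the platform annotation, and promoters from RefSeq (GRCm38.p6).

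The members and lists were chosen with earlier results of these data known. Named genes were those called in any comparison, a fixed set of main transporters, and, in the other pathway lists, those called in mutant jejunum; exceptions are stated. Groups come from the sample titles, and the mice were independent, so same-numbered replicates were not paired in the model. The number of arrays limits precision. The alternatives tried were other pseudocounts, scalings and filters, no intensity trend, array weights, a replicate block, the compared groups alone, and leaving out each array. A further, unplanned setting kept the array controls.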

Additional observations from a re-analysis of the deposited data

How the results depend on the processing

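No called difference of the 21 named member genes changed sign in any setting. The losses given with each gene are mostly those from leaving out 1 array, and some calls were also lost under other settings. Of 14 called gene and comparison pairs, 6 kept the call in every setting run, and of 49 uncalled pairs, 29 were called in none. In mutant against control jejunum, 2 members were called higher and 1 lower. The higher count was 1 with a pseudocount of 1, with arrays scaled to a common trimmed mean, with no filter and with no intensity trend, and 4 with arrays centred on their medians or with any probe set counted. The lower count was 2 with a pseudocount of 64, scaling to a trimmed mean or a filter at the 60th percentile, 3 with array weights, and 0 with no scaling, median centring, no trend or the 2 groups alone. In ileum against control jejunum, 4 higher and 3 lower became 2 and 16 with no scaling and 7 and 6 with array weights. In mutant jejunum against ileum, 3 higher became 17 with no scaling and 1 with no filter, no trend or the 2 groups alone, and 1 lower became 0 with no scaling and 3 with array weights. Without scaling the median of all tested probe sets shifted by -0.40 in ileum against control jejunum and by 0.41 in mutant jejunum against ileum; for the other settings the cause was not tested.

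Leaving out 1 array gave 1 to 3 higher and 0 to 2 lower for mutant against control jejunum, 4 to 5 and 2 to 6 for ileum against control jejunum (6 without mutant array 3), and 1 to 3 and 0 to 2 for mutant jejunum against ileum. Same-numbered arrays had correlations of -0.07 to 0.17 in their deviations from group means, 2 of 9 over 0.1. Both of these were between arrays numbered 1 (0.17 and 0.12). With 3 arrays a group, such low values cannot exclude a link between same-numbered arrays. With the replicate block the counts were 2 higher and 1 lower, 5 and 3, and 2 and 1. Low levels near the filter, as for Hmox1 and Cybrd1, limit what can be seen.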

Other observations

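The other pathway lists held further genes called lower in ileum against control jejunum, named here after their values were seen. Over all genes tested, 9.12% were called lower in that comparison, and nothing is read from the lists' shares. Of the 25 other iron genes, 4 were called lower: Ncoa4 and the cellular iron sensors Aco1, Ireb2 and Fbxl5. Aco1, the iron regulatory protein that doubles as cytosolic aconitase, read 11.76, 12.13 and 12.14 in control jejunum, 11.59, 11.39 and 11.39 in mutant jejunum, and 11.35, 10.97 and 11.01 in control ileum. The groups did not overlap, the ileal difference was -0.90 (limma adjusted p = 0.00137), and the mutant difference of -0.55 was not called (0.0525). Ireb2, the other iron regulatory protein, differed by -0.93 in ileum (limma adjusted p = 0.00152) and by -0.52 in the mutant (0.0815). Fbxl5, the iron-sensing ubiquitin ligase subunit that targets Ireb2, differed by -0.90 in ileum (limma adjusted p = 0.00124) and was 0.61 higher in mutant jejunum than in ileum (0.0411). The ileal calls of Aco1, Ireb2 and Fbxl5 held in every setting run. That of Ncoa4 (-0.39; limma adjusted p = 0.047) was lost without any control jejunum array (0.134, 0.103 and 0.091), mutant array 2 (0.0656) or ileal array 2 or 3 (0.134 and 0.129). Fbxl5 lost its call over ileum without any 1 array other than mutant array 3 (0.0538 to 0.146).

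Of the 17 other heme genes, 5 were called lower in ileum, and 4 of these are enzymes of heme synthesis: Alas1 (-0.46), Urod (-0.35), Cpox (-1.10) and Ppox (-0.86). Alas1, the first and rate-limiting enzyme, read 10.52, 10.33 and 10.37 in control jejunum, 10.69, 10.71 and 10.69 in mutant jejunum, and 9.87, 9.78 and 10.19 in control ileum. It was 0.75 higher in mutant jejunum than in ileum (limma adjusted p = 0.0123), a call lost without mutant array 1 (0.0503) or ileal array 2 (0.0572). The ileal calls of Cpox and Ppox held in every setting run. That of Alas1 was lost without any control jejunum array (0.0559 to 0.0845) or ileal array 1 or 2 (0.0766 and 0.1), and that of Urod without any 1 array other than mutant array 3 (0.056 to 0.12). Of the 13 other copper genes, the copper chaperones Ccs (-0.55; limma adjusted p = 0.0172), Cox19 (-0.36; 0.0489) and Sco2 (-2.11; 0.000106) were called lower in ileum. The Ccs call was lost without control jejunum array 1 or 3 (0.0516 and 0.0617) or ileal array 3 (0.06), and the Cox19 call without any 1 array other than mutant array 3 (0.0597 to 0.141). Epas1 differed by -0.70 there (limma adjusted p = 0.0138) and Ankrd37 by 1.42 (0.0287). The Epas1 call was lost without control jejunum array 2 (0.0625) or ileal array 2 or 3 (0.053 and 0.0511), and the Ankrd37 call without control jejunum array 2 (0.11) or ileal array 1 or 3 (0.0955 and 0.0579). Smooth muscle markers were higher and T cell and B and plasma cell markers lower on the same ileal arrays, and their part in these values was not tested.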
